A study of Homo sapiens with 10 samples.

Results

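The ribosomal protein genes of the cytosolic ribosome were followed in K562 cells, an established human line derived from chronic myeloid leukemia. They were taken as all genes of the deposited table whose symbol is RPL or RPS followed by the number of a ribosomal protein, together with RPLP0, RPLP1, RPLP2 and RPSA, where the 10 values averaged 0.5 FPKM or more. Of 86 matching symbols, 81 passed this minimum, 50 of the large subunit and 31 of the small subunit, among 12788 genes that passed it and 23284 in the table. For 48 h, cells received the vehicle DMSO or one of the compounds CBP30 and I-CBP112, each at 2 and at 5 µM, and every one of these 5 conditions had 2 samples labelled as biological replicates. CBP30 and I-CBP112 both block the bromodomains of the histone acetyltransferases CREBBP and EP300, the acetyl-lysine binding modules of these coactivators. All samples came from 1 cell line, no gene was edited, and polyadenylated RNA was sequenced. The values are FPKM, a gene's fragments relative to transcript length and to library size, so they state a gene's part of the library and not its amount per cell. In bulk RNA, fewer cells with a transcript and less of it per cell cannot be told apart.

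A ribosome joins a small subunit, which reads the messenger RNA, and a large subunit, which forms the peptide bonds, and the finished particle holds nearly every ribosomal protein in the same number. The genes are scattered over the genome, and most of their messenger RNAs begin with a C followed by a run of pyrimidines, the TOP motif, through which mTOR and LARP1 adjust their translation together. MYC and the supply of nutrients are known to set how much ribosome a growing cell makes, and shortage of single ribosomal proteins is known for impairing red cell formation in particular.

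Nearly all of the 81 genes were highly expressed. They lay on 21 chromosomes, with 12 on chromosome 19 and 9 on chromosome 3. Their median mean level was 1669 FPKM, against 11.7 FPKM over all tested genes, and 64 of the 100 most highly expressed genes were among them. In all, 60 genes had a mean of 1000 FPKM or more, 16 were between 100 and 1000 FPKM, and the 5 below 100 FPKM were RPL21 and the paralogs RPL22L1, RPL39L, RPL26L1 and RPS27L. The 5 matching symbols that did not pass the minimum were RPL3L and RPL10L, at means of 0.155 and 0.0841 FPKM, and 3 that are listed at 0 in all samples, among them RPS4Y1 and RPS4Y2.

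The start of the transcript is shown for the genes on which the results below turn, because it is where the TOP motif would stand. Each window runs from 10 bases before to 20 bases from the annotated start onward, read 5′ to 3′ on the gene's own strand, from RefSeq on GRCh38.p14, whose coordinates differ from the hg19 build of the deposited values. Capitals mark a run at the annotated start that opens with C and goes on with at least 4 further C or T. The first set holds the 5 genes with the largest fall with 5 µM CBP30.
RPL29, chr3:51995876-51995905, minus strand: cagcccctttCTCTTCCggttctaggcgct
RPL10A, chr6:35468391-35468420, plus strand: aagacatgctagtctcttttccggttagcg
RPL12, chr9:127451387-127451416, minus strand: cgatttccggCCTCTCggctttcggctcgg
RPS21, chr20:62387093-62387122, plus strand: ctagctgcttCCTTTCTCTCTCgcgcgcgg
RPL13A, chr19:49487598-49487627, plus strand: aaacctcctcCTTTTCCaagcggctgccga
The second set is a choice of genes that changed less than most or rose, with 2 paralogs each after the gene it resembles. It leaves out RPL39, RPLP0 and RPSA, which also changed less than most and have the run. Also left out are RPL22 and its paralog RPL22L1, which have the run, and RPL7L1, which does not. The windows printed therefore do not show how often the run occurs in either kind of gene. RPL26 is shown only as the partner of RPL26L1, with a change of −0.44 beside a median of −0.40 for the 81 genes. RPL26L1 has 2 annotated starts.
RPS27, chr1:153990752-153990781, plus strand: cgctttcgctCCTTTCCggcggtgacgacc
RPS27L, chr15:63157458-63157487, minus strand: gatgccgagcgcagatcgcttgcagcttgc
RPL26, chr17:8383174-8383203, minus strand: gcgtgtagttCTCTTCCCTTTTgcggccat
RPL26L1, chr5:172958719-172958748, plus strand: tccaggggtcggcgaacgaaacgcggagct
RPL26L1, chr5:172958870-172958899, plus strand: ggcggcggccacaaacccgcaggcacgccg
RPS26, chr12:56041908-56041937, plus strand: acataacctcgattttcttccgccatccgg
RPS4X, chrX:72277229-72277258, minus strand: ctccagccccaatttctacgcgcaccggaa

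RefSeq windows were found for 66 of the 81 genes, 11 of them with more than 1 start, which gave 82 windows. The pyrimidine run stood at the start of 47 windows, or 57.3%, against 4.07% of the 35116 windows in the table. Over the 300 bases from 250 before to 50 after the start, TTCCGG or its reverse complement CCGGAA, the core that ETS factors such as GABPA bind, was in 52.4% of the windows against 17.2% of all. The E-box CACGTG, which reads the same on both strands and is bound by MYC with MAX, was in 6.10% against 7.26%. GGGCGG or CCGCCC, the core bound by SP1, was in 53.7% against 45.0%, and TATAAA or TTTATA in 7.32% against 11.5%. TTCCGG and CCGGAA can overlap each other, and no motif was counted more than once in a window. These matches describe letters only. A run that begins beyond the annotated start is not counted, as in the windows of RPL10A and RPS26 above.

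Together the genes took a large part of the transcriptome as FPKM counts it. They made up 23.77% and 24.04% of the summed FPKM in the DMSO samples, 27.97% and 23.79% at 2 µM CBP30, 20.05% and 20.1% at 5 µM CBP30, 22.92% and 23.91% at 2 µM I-CBP112, and 24.15% and 23.85% at 5 µM I-CBP112. Both samples of 5 µM CBP30 were thus below all others, and replicate 1 of 2 µM CBP30 was above all others. In sums, the genes stood at 146552 ± 537 FPKM (SD, n = 2) in DMSO and at 110298 ± 770 (SD, n = 2) with 5 µM CBP30, 75.3% of DMSO, while all other genes went from 466504 ± 3114 (SD, n = 2) to 439247 ± 2116 (SD, n = 2), 94.2% of DMSO. The ratio of the summed large to the summed small subunit genes was 1.298 and 1.293 in DMSO and 1.294 and 1.296 with 5 µM CBP30, so these groups overlapped.

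**Figure D1:**
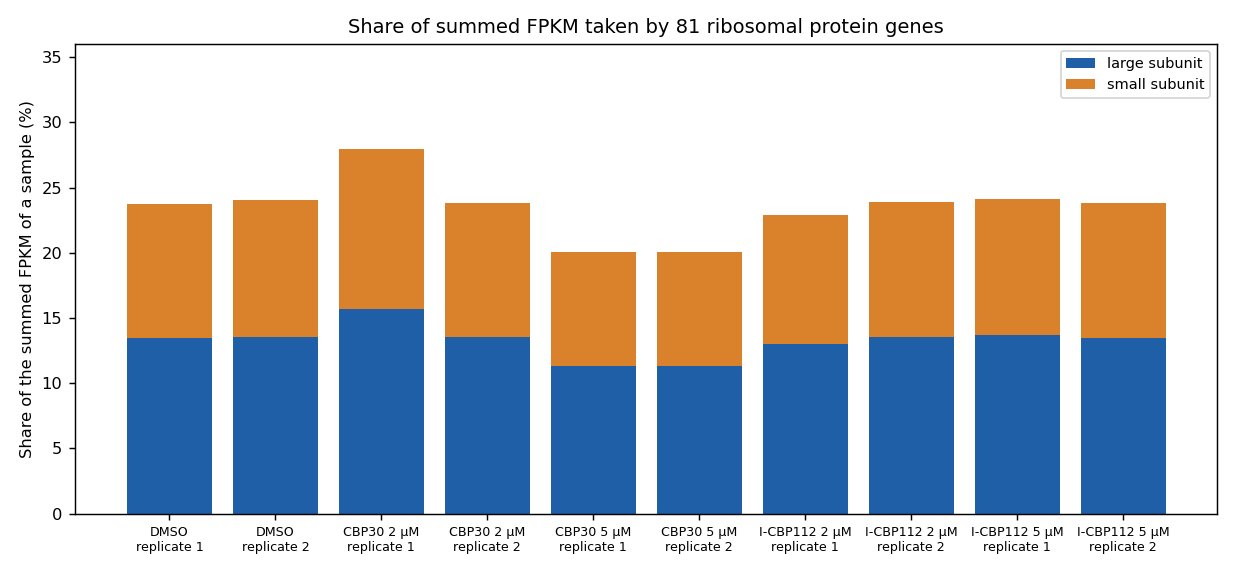
Share of the summed FPKM of each sample, in percent, taken by the 81 ribosomal protein genes, with large subunit genes in blue and small subunit genes in orange stacked upon them and 1 bar for each of the 10 samples. The bars of 5 µM CBP30 reach 20.05% and 20.1%, those of DMSO 23.77% and 24.04%, and replicate 1 of 2 µM CBP30 reaches 27.97%.

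One library stands apart. It sets values at 2 µM CBP30, and for the other groups it enters the shared spread, and so the errors and calls, but not the fitted changes. In replicate 1 of 2 µM CBP30, short transcripts read high and long ones low. With the other genes split by transcript length into 5 bins of equal size, the median deviation from DMSO was 0.29 on the log2 scale in the bin of the shortest and −0.30 in that of the longest, whereas replicate 2 gave 0.00 and −0.02. The 5 µM CBP30 samples had a weaker trend of the opposite sign, with −0.11 and −0.10 among the shortest and 0.12 and 0.12 among the longest. Ribosomal protein transcripts are short, with a median of 551 bases in the shortest coding transcript annotated for each gene. Results are therefore given also without that library and with the trend removed. The depth of the libraries is not stated by FPKM. Values of 347 genes found in 2 to 4 libraries, each taken as 1 read, gave a ratio of 1.21 between libraries. Only genes whose values lay close together were used, so a larger difference in depth could have been missed. All 10 markers of K562 were expressed. They summed to 1383 FPKM in both DMSO samples and to between 596 and 626 FPKM with 5 µM CBP30, where 8 of them fell and 1 rose. Of 9 markers of other cell types, 5 passed the minimum, of which EPCAM fell and CD3E, LYZ and COL1A1 rose with 5 µM CBP30, with sums over the 9 of 99.99 to 100.7 FPKM in DMSO and 83.2 to 87.2 FPKM with 5 µM CBP30, and MPO at 0 in all samples but 1. The part of these markers in the results was not tested.

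With 5 µM CBP30 the ribosomal protein genes moved down as a body. Of the 81 genes, 49 fell, 1 rose, and 31 did not pass the test (limma on log2(FPKM + 1), Benjamini-Hochberg adjusted p under 0.05), where 25.4% of all tested genes fell and 21.2% rose. The median change was −0.40 on the log2 scale, 75.6% of DMSO, with quartiles of −0.52 and −0.30, while the median of all tested genes was −0.01. Both treated samples were below both DMSO samples for 76 of the 81 genes, against 42.6% of all tested genes, and above them for 2, RPS26 and RPS27L, against 39.5%. The median deviation from DMSO was −0.41 in replicate 1 and −0.40 in replicate 2. Between the replicates, the changes of the 76 genes without the paralogs had a Spearman correlation of 0.871 across genes, which share libraries and are not independent. The same measure was 0.587 for 2 µM CBP30 and 0.597 for 5 µM I-CBP112, where 0 of the 81 genes passed. Across the same genes, the change with 5 µM CBP30 had a Spearman correlation of −0.100 with the mean level and of −0.0397 with transcript length.

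**Figure D2:**
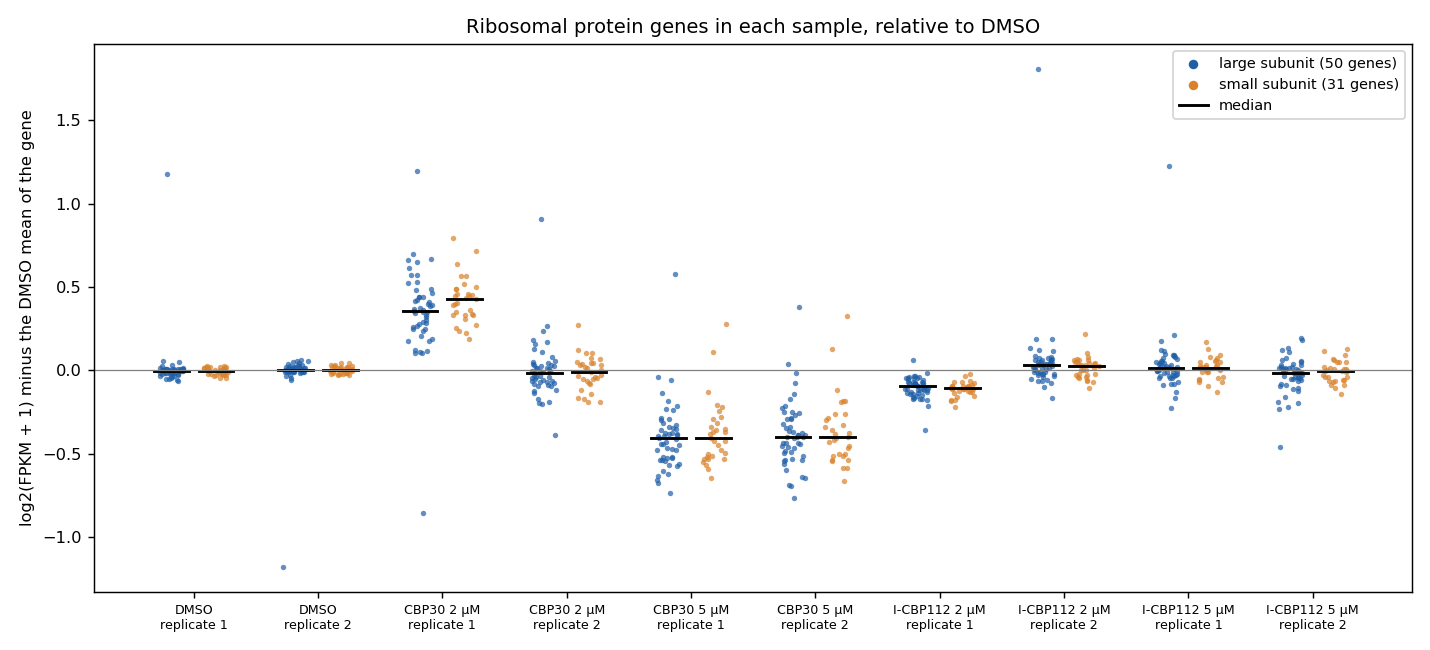
Deviation of log2(FPKM + 1) from the mean of the DMSO samples for each of the 81 genes in each of the 10 samples, with large subunit genes in blue, small subunit genes in orange and a black line at each median. The medians of the 5 µM CBP30 samples lie at −0.41 and −0.40 for both subunits, those of replicate 1 of 2 µM CBP30 at 0.36 and 0.43, and the blue points far from the rest in DMSO and I-CBP112 are RPL21.

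The direction of the fall held under each alternative tried, and the number of calls moved with most of them. Leaving out either replicate of 2 µM CBP30 leaves 1 sample in that group, which then adds no spread to the shared variance. The number of calls rose in both cases, so the gain without replicate 1 is not particular to that library. Without replicate 1 of 2 µM CBP30, whose spread enters the shared variance, 72 genes fell and the median was the same −0.40, where 33.4% of all tested genes fell and 29.5% rose. With the trend with length removed, 67 fell and RPS27L rose, with a median of −0.30, where 28.2% of all tested genes fell and 27% rose. Quantile normalization, which forces the highest genes of every sample to 1 distribution, left 42 lower, against 24.9% of all tested genes, and a median of −0.14. Scaling to the sum of the other genes left 49 lower, against 21% of all tested genes, and a median of −0.32. With 1 DMSO or 5 µM CBP30 sample left out, 8 to 11 of the 81 genes were called lower, a smaller share than the 17.5% to 18.4% of all tested genes, and without either sample of 5 µM I-CBP112 29 were, against 22.7%.

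Large and small subunit genes had close medians as deposited, and the difference was not tested. Of the 50 large subunit genes, 33 fell, with a median of −0.40, and of the 31 small subunit genes, 16 fell and 1 rose, also with a median of −0.40. Without the 5 paralogs, the medians were −0.41 for 46 large and −0.41 for 30 small subunit genes. The median SE was 0.125 for those large subunit genes and 0.137 for the small ones, and without replicate 1 of 2 µM CBP30 the counts were 44 of 50 and 28 of 31. The medians of large and small subunit genes were −0.17 and −0.09 under quantile normalization, and −0.31 and −0.28 with the length trend removed.

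The 5 largest falls were in genes of both subunits. RPL29, on the outside of the large subunit, had 999 and 983 FPKM in DMSO and 596 and 583 FPKM with 5 µM CBP30, and it lies on hg19 chromosome 3 from 52027538 to 52029911. All treated values were far under all DMSO values, and the change was −0.75 ± 0.09 (SE, limma, adjusted p = 0.000703, n = 2 against 2). RPL10A, the protein of the L1 stalk that helps release spent transfer RNA, went from 1454 and 1456 FPKM to 912 and 903 FPKM, a change of −0.68 ± 0.13 (limma, adjusted p = 0.00433), from a gene on chromosome 6 at 35436178 to 35438562.

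RPL12, at the base of the stalk where translation factors dock, had 1499 and 1477 FPKM in DMSO and 943 and 919 FPKM with treatment, a change of −0.68 ± 0.10 (limma, adjusted p = 0.00181), on chromosome 9 from 130209953 to 130213685. RPS21, a small subunit protein, went from 1306 and 1267 FPKM to 821 and 814 FPKM, or −0.65 ± 0.18 (limma, adjusted p = 0.0233), on chromosome 20 from 60962159 to 60963576. RPL13A, whose introns host small nucleolar RNAs, went from 1334 and 1338 FPKM to 861 and 856 FPKM, or −0.64 ± 0.15 (limma, adjusted p = 0.00982), on chromosome 19 from 49990767 to 49996314. In each of these genes the groups were apart by far more than the distance between replicates. The processed copy RPL13AP5 has a row of its own, at 1041 and 954 FPKM in DMSO and 714 and 731 FPKM with treatment, so reads of the 2 copies may have been exchanged and the level of RPL13A is uncertain.

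**Figure D3:**
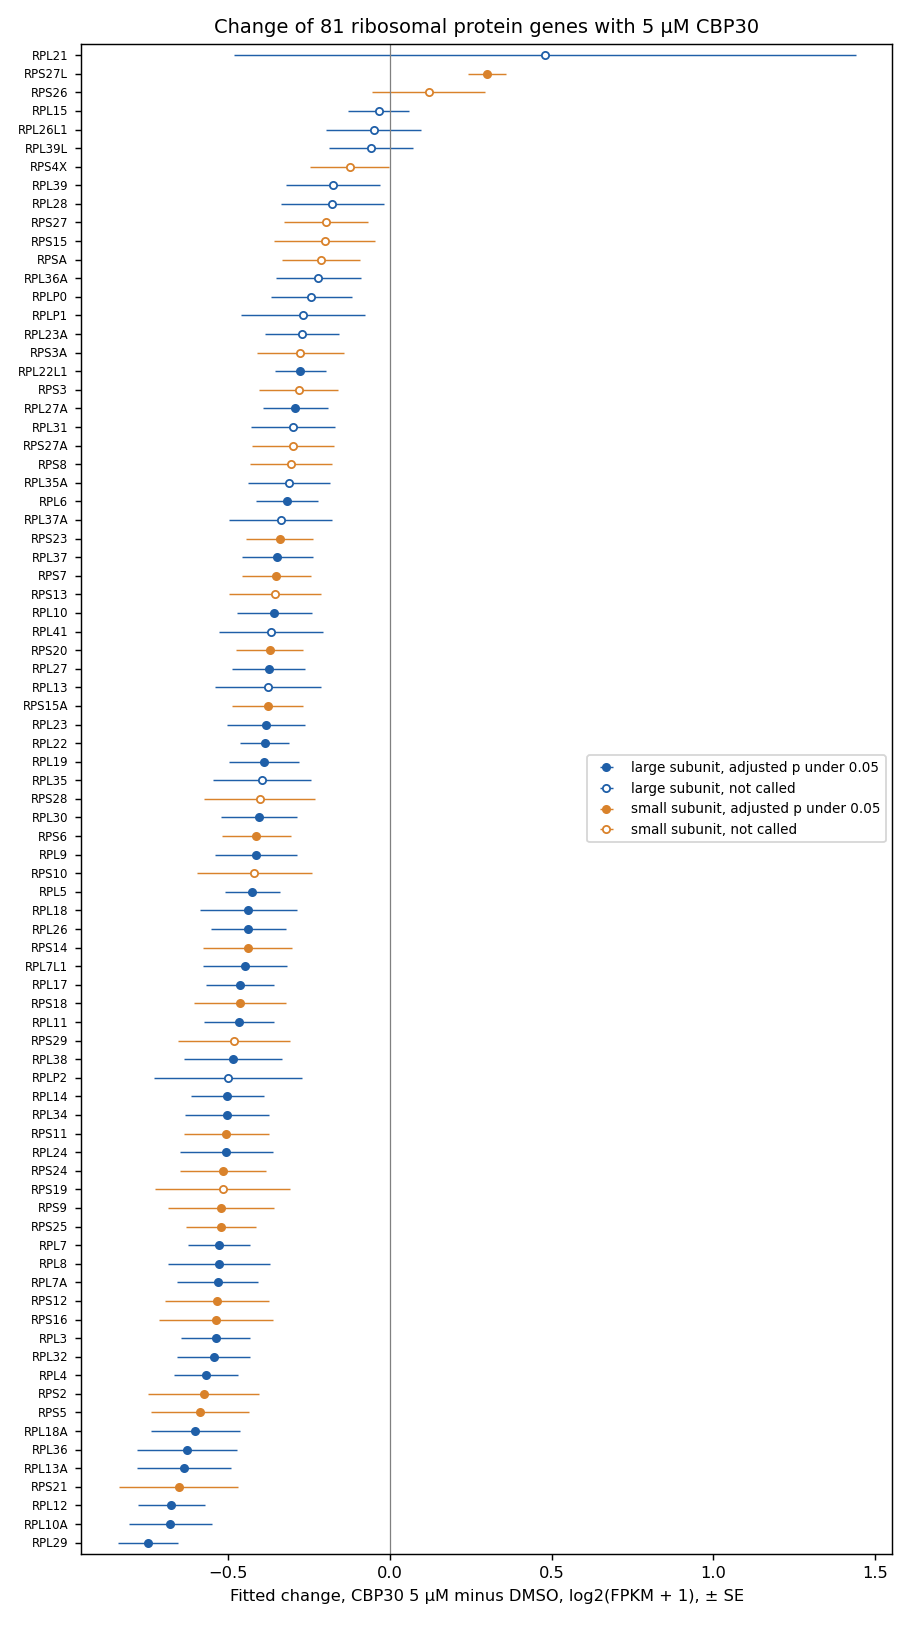
Fitted change between 5 µM CBP30 and DMSO on the log2(FPKM + 1) scale for each of the 81 genes, ordered from highest to lowest, with bars of 1 SE and filled points for an adjusted p under 0.05. The genes run from RPL21 at 0.48, with the widest error, through RPS27L at 0.30, the one filled point above 0, to RPL29 at −0.75.

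Proteins grouped by their role in the ribosome followed the same course with some spread. In the stalk that recruits translation factors, RPLP0, RPLP1 and RPLP2 gave changes of −0.24, −0.27 and −0.50, and 0 of 3 passed the test, while all 3 were below DMSO in both samples. Without replicate 1 of 2 µM CBP30 the 3 changes were the same. With the length trend removed RPLP0 and RPLP2 passed (limma, adjusted p = 0.0146 and 0.0339) and RPLP1 did not (limma, adjusted p = 0.340). RPL5 and RPL11, which carry 5S rRNA into the large subunit and can bind MDM2, both fell. RPL5 had 2058 and 2096 FPKM in DMSO and 1526 and 1566 FPKM with 5 µM CBP30, and its change was −0.43 ± 0.08 (limma, adjusted p = 0.00545). RPL11 had 2633 and 2615 FPKM and then 1894 and 1902 FPKM, a change of −0.47 ± 0.11 (limma, adjusted p = 0.0104).

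RPS6, the substrate of the S6 kinases, went from 1887 and 1926 FPKM to 1422 and 1441 FPKM, with a change of −0.41 ± 0.11 (limma, adjusted p = 0.0163). RPS27A, which is made as a fusion with ubiquitin, had 1382 and 1423 FPKM and then 1107 and 1172 FPKM, and its change of −0.30 ± 0.13 did not pass (limma, adjusted p = 0.0906). RPSA, which is also known as the laminin receptor precursor, had 855 and 849 FPKM and then 721 and 749 FPKM, with a change of −0.21 ± 0.12 (limma, adjusted p = 0.187). Both were lower in each treated sample than in either DMSO sample, and their changes were the same without replicate 1 of 2 µM CBP30. With the length trend removed, RPS27A passed (limma, adjusted p = 0.0195) and RPSA did not (limma, adjusted p = 0.168).

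Loss of 1 copy of several of these genes is known to cause Diamond-Blackfan anemia, a failure of red cell formation. Of 8 such genes that were measured, RPL5, RPL11, RPS24 and RPS7 fell with 5 µM CBP30, and RPS19, RPL35A, RPS26 and RPS10 did not pass, with a median of −0.42 over the 8, where 25.4% of all tested genes fell. RPS19, RPL35A and RPS10 passed as well with the length trend removed, and RPS26 did not. RPS24 went from 2318 and 2270 FPKM to 1599 and 1609 FPKM. RPS19, the one most often affected in patients, went from 989 and 986 FPKM to 701 and 679 FPKM, and its change of −0.52 ± 0.21 had an adjusted p of 0.0803 by limma. Its samples do not overlap, and the spread behind its error includes 1625 FPKM in replicate 1 of 2 µM CBP30 against 979 FPKM in replicate 2. RPS14, the gene behind the anemia of the 5q syndrome, fell from 2264 and 2327 FPKM to 1680 and 1702 FPKM, by 0.44 ± 0.14 on the log2 scale (limma, adjusted p = 0.0353).

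Some genes changed less than most or were higher in value. RPS26 had 180.0 and 181 FPKM in DMSO and 195 and 197 FPKM with 5 µM CBP30, above DMSO in both samples, and its change of 0.12 ± 0.18 did not pass (limma, adjusted p = 0.609). RPS4X, whose Y-linked copies are listed at 0, had 1884 and 1916 FPKM and then 1735 and 1750 FPKM, below DMSO in both samples. Its change of −0.12 ± 0.12 did not pass (limma, adjusted p = 0.436). RPL15, singled out after its values were seen, had 617 and 661 FPKM and then 614 and 633 FPKM, which overlap, for a change of −0.04 ± 0.10 (limma, adjusted p = 0.789). The 95% confidence interval of the change ran from −0.26 to 0.19 for RPL15 and from −0.29 to 0.53 for RPS26. Under quantile normalization the change of RPS4X was 0.15 and past the threshold (limma, adjusted p = 0.00251), so its direction turned with the scaling.

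RPL21 varied more between replicates than any treatment moved it. Its row gave 96.9 and 18.1 FPKM in DMSO, 98.3 and 80.3 FPKM with 2 µM CBP30, 63.6 and 55.3 FPKM with 5 µM CBP30, 32.8 and 151 FPKM with 2 µM I-CBP112, and 100 and 30.5 FPKM with 5 µM I-CBP112. The row of RPL21P28, a processed copy, held 1301 and 1398 FPKM in DMSO and 956 and 993 FPKM with 5 µM CBP30. Added together the rows gave 1398 and 1416 FPKM in DMSO and 1020 and 1049 FPKM with 5 µM CBP30, a log2 ratio of −0.44, and most of each sum is the row of RPL21P28. With 2 µM I-CBP112 the sum was 1285 and 1396 FPKM, farther apart than the 1253 and 1246 FPKM of RPL21P28. Over all 28 rows of processed copies, the summed level was 1.55% to 1.65% of that of the 81 genes.

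The paralogs, genes that arose by copying from a ribosomal protein gene and are expressed at a low level beside most ribosomal protein genes, did not behave alike. RPS27L, known as a target of p53 in other cells, was the only one of the 81 genes to rise with 5 µM CBP30. It had 53.9 and 54.7 FPKM in DMSO, 63.7 and 58.5 FPKM with 2 µM CBP30, 66.0 and 68.2 FPKM with 5 µM CBP30, 53.1 and 55.5 FPKM with 2 µM I-CBP112, and 56.2 and 59.3 FPKM with 5 µM I-CBP112. The 5 µM CBP30 samples were the highest of all 10, and the change was 0.30 ± 0.06 (limma, adjusted p = 0.00501), with the same call in each of 22 alternative settings, at 0.28 to 0.41. The gene lies on hg19 chromosome 15 from 63418071 to 63450220.

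Its partner RPS27 had 4102 and 4357 FPKM in DMSO and 3664 and 3709 FPKM with 5 µM CBP30, a change of −0.20 ± 0.13 (limma, adjusted p = 0.247). As a percentage of RPS27, RPS27L thereby stood at 1.28 ± 0.0404% (SD, n = 2) in DMSO, 1.19 ± 0.133% with 2 µM CBP30, 1.82 ± 0.0283% with 5 µM CBP30, 1.26 ± 0.0220% with 2 µM I-CBP112 and 1.26 ± 0.0541% with 5 µM I-CBP112. Only the 5 µM CBP30 samples were apart from DMSO by more than the replicates differed, a difference for which 2 samples against 2 allow no test below p = 0.05 by permutation.

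RPL22L1, the counterpart of RPL22 that can stand in for it, fell together with it. Its level was 9.59 and 9.44 FPKM in DMSO and 7.37 and 7.99 FPKM with 5 µM CBP30, a change of −0.28 ± 0.08 (limma, adjusted p = 0.0241), and RPL22 went from 619 and 641 FPKM to 476 and 486 FPKM, a change of −0.39 ± 0.08 (limma, adjusted p = 0.00514). The paralog held 1.51 ± 0.0536% (SD, n = 2) of its partner in DMSO and 1.596 ± 0.0673% (SD, n = 2) with 5 µM CBP30.

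RPL26L1 and RPL39L moved less than the bulk of the group. RPL26L1 had 45.8 and 46.9 FPKM in DMSO and 42.1 and 47.6 FPKM with 5 µM CBP30, a change of −0.05 ± 0.15 (limma, adjusted p = 0.809), while RPL26 fell from 1628 and 1638 FPKM to 1202 and 1208 FPKM, by 0.44 ± 0.12 on the log2 scale (limma, adjusted p = 0.0183). RPL39L, best known from testis, had 28.3 and 28.6 FPKM in DMSO and 27.6 and 26.9 FPKM with 5 µM CBP30, a change of −0.06 ± 0.13 (limma, adjusted p = 0.746), and RPL39 had 3942 and 4032 FPKM and then 3440 and 3616 FPKM, a change of −0.18 ± 0.14 (limma, adjusted p = 0.350) that turned to 0.15 under quantile normalization (limma, adjusted p = 0.0329). The intervals of the changes of RPL26L1 and RPL39L, −0.40 to 0.30 and −0.36 to 0.25, are wide, and whether a paralog differs from its partner was not tested.

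**Figure D4:**
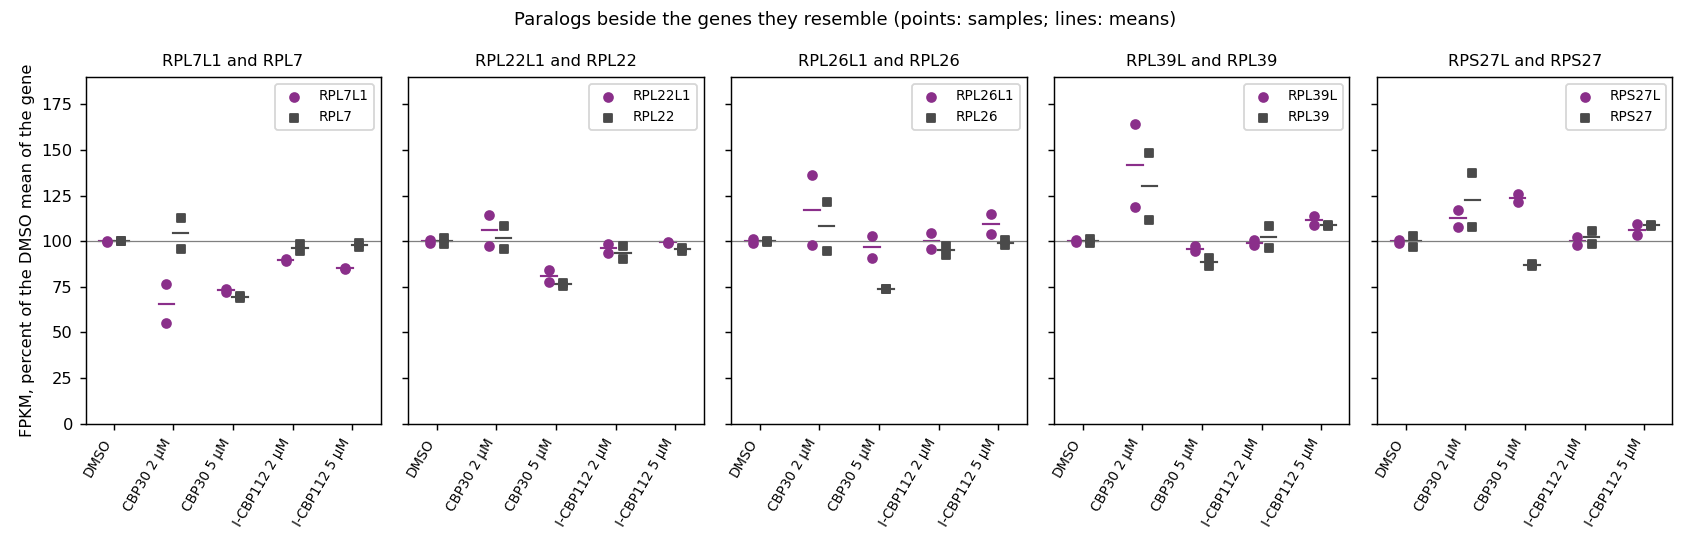
FPKM of the 5 expressed paralogs (purple circles) and of the genes they resemble (grey squares) in each sample, as a percentage of the gene's own DMSO mean, with short lines at the means of 2 samples. With 5 µM CBP30, RPS27L stands at 124% and RPS27 at 87.2% of DMSO, and RPL7L1 is the one gene plotted whose 2 µM CBP30 samples both lie under both DMSO samples while its partner's do not.

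RPL7L1 fell at both doses of CBP30, in the fit of all samples the one gene of the 81 to do so. In the fit without replicate 1 of 2 µM CBP30, 6 other genes also fell at 2 µM. It is related to RPL7 and to a nucleolar assembly factor of yeast, and it lies on chromosome 6 from 42847354 to 42857663 with the longest transcript of the group, 3769 bases. Its level was 140.4 and 141.5 FPKM in DMSO, 77.4 and 108 FPKM with 2 µM CBP30, 102 and 104 FPKM with 5 µM CBP30, 128 and 126 FPKM with 2 µM I-CBP112 and 120.3 and 120 FPKM with 5 µM I-CBP112. All treated samples were below both DMSO samples. The change was −0.62 ± 0.13 with 2 µM CBP30 (limma, adjusted p = 0.0124) and −0.45 ± 0.13 with 5 µM CBP30 (limma, adjusted p = 0.0269), and it was −0.15 ± 0.13 and −0.23 ± 0.13 with 2 and 5 µM I-CBP112 (limma, adjusted p = 0.697 and 0.366). Its change with 2 µM CBP30 was −0.39 without replicate 1, and with the length trend removed it was −0.60 (limma, adjusted p = 0.00586). Over 22 alternative settings, the change with 2 µM CBP30 ran from −0.857 to −0.386 and was called in 19. The change with 5 µM CBP30 ran from −0.465 to −0.306 and was called in 15 of the 22.

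With 2 µM CBP30 no common movement held across both samples. The median deviation of the 81 genes was 0.39 in replicate 1 and −0.01 in replicate 2. In the fit of both, RPL7L1 fell, RPL39L and RPL15 rose, and 78 did not pass, where 16.3% of all tested genes fell and 15.9% rose, and the median was 0.19 against 0.01 over all tested genes. Both samples were above both DMSO samples for 29 genes and below them for 1, against 31.4% and 30.5% of all tested genes. Without replicate 1, 7 genes fell (RPL10A, RPL12, RPL36, RPL7L1, RPL8, RPS16 and RPS24) and RPL39L rose, with a median of −0.01, where 19.9% of all tested genes fell and 17.2% rose. Without replicate 2, the median was 0.385. With the length trend removed, 13 fell and 2 rose, RPL39L and RPS26, with a median of −0.01, where 20.7% of all tested genes fell and 20.4% rose. The fall of RPL7L1 thus held without replicate 1, as did the rise of RPL39L, from 28.3 and 28.6 FPKM to 46.8 and 33.7 FPKM, at 0.24 (limma, adjusted p = 0.00743), and RPL15 was no longer called. Leaving out a DMSO sample ended these 3 calls, and leaving out any sample of the other groups ended at least 1 of the 2 rises.

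**Figure D5:**
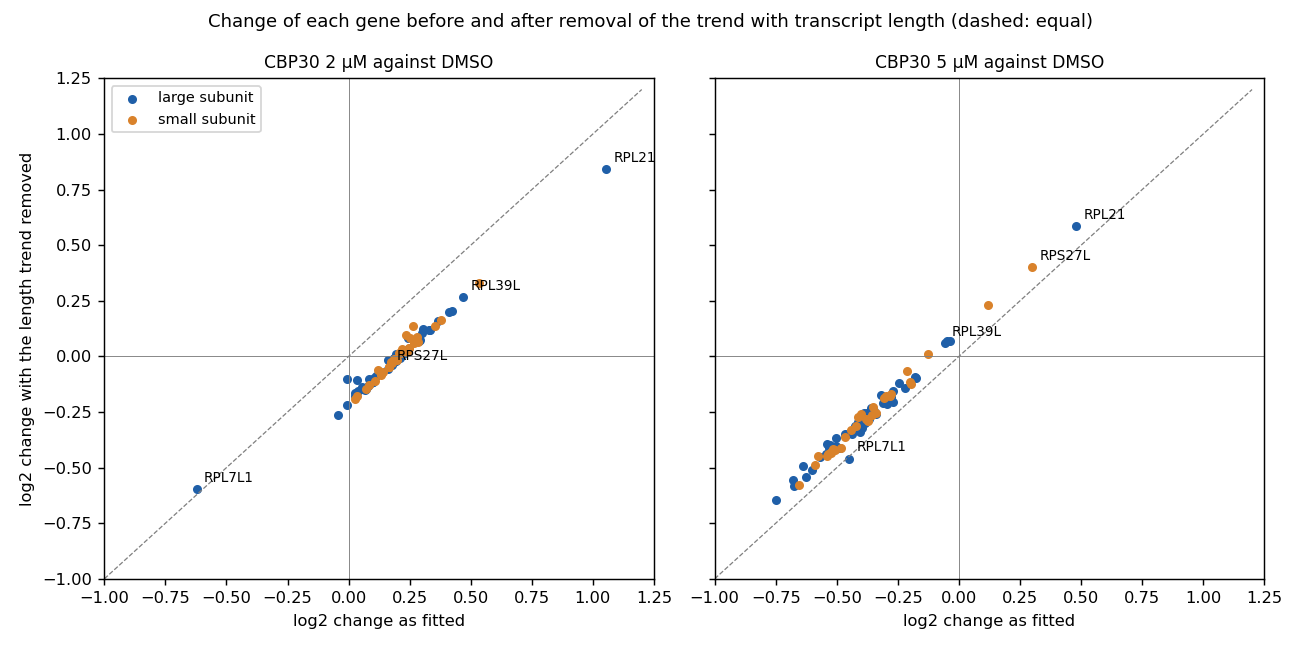
Change of each of the 81 genes with 2 µM (left) and 5 µM CBP30 (right) against DMSO on the log2 scale as fitted (horizontal) and after the trend with transcript length was removed (vertical), with a dashed line where both are equal. The median goes from 0.19 to −0.01 with 2 µM and from −0.40 to −0.30 with 5 µM, and RPL7L1, the longest, keeps its place with 2 µM CBP30.

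Between the doses of CBP30, 75 genes were lower at 5 than at 2 µM and 0 were higher, against 21.3% and 17.6% of all tested genes, with a median difference of −0.58. Both samples at 5 µM were below both at 2 µM for 78 genes and above them for 1, against 37.8% and 32.5% of all tested genes. Without replicate 1 of 2 µM CBP30, the median was −0.38, with 73 lower and RPS27L higher, against 18.2% and 15.3% of all tested genes. With the length trend removed it was −0.28, with 68 lower and RPS27L higher, against 19.3% and 18.1%. A fit of these 2 groups alone called 0 genes in either direction, and leaving out either sample of 5 µM CBP30 left 2 or 3 lower.

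I-CBP112 left the ribosomal protein genes near their DMSO levels at both doses. With 5 µM, 0 of 81 genes passed in either direction by limma, also 0 at an unadjusted p under 0.05, where 3.28% of all tested genes fell and 3.84% rose, and the median change was −0.00, with a median 95% confidence interval from −0.29 to 0.30 for a single gene. With 2 µM, 0 passed, again 0 at an unadjusted p under 0.05, against 0.735% lower and 0.868% higher of all tested genes, and the median was −0.04. Both treated samples were below both DMSO samples for 21 genes and above them for 20 with 5 µM, against 33.7% and 30.5% of all tested genes, and for 25 and 0 with 2 µM, against 28.3% and 25% of all. RPL29, with 935 and 889 FPKM with 5 µM I-CBP112, had a change of −0.12 ± 0.09, and RPL13A, with 1382 and 1405 FPKM, of 0.06 ± 0.15. These intervals leave room for changes of either sign in single genes. Without replicate 1 of 2 µM CBP30, 3 genes passed as lower with 5 µM, RPL7L1, RPL36 and RPL8, and 1 as higher, RPL39L, where 12.4% and 10.5% of all tested genes passed, and RPL7L1 passed as lower with 2 µM, where 4.9% fell and 4.17% rose. RPL36, RPL8 and RPS16 were named after their values were seen. With the length trend removed, 0 of 81 passed at either dose by limma, against 7.67% lower and 7.64% higher of all tested genes with 5 µM and 2.19% and 2.46% with 2 µM.

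Compared directly at 5 µM, CBP30 gave lower levels than I-CBP112 in 38 genes and a higher level in 1, RPS27L, against 17.9% and 13.6% of all tested genes, with a median difference of −0.40. Both CBP30 samples were below both I-CBP112 samples for 78 of 81 genes and above them for 1, against 41.5% and 37.4% of all tested genes. The median 95% confidence interval of the difference ran from −0.70 to −0.09 for a single gene. RPL13A had 861 and 856 FPKM with CBP30 and 1382 and 1405 FPKM with I-CBP112, a difference of −0.70 ± 0.15 (limma, adjusted p = 0.0114). RPS27L had 66.0 and 68.2 FPKM against 56.2 and 59.3 FPKM, a difference of 0.21 ± 0.06 (limma, adjusted p = 0.0311), which was not called with any sample of DMSO, 5 µM CBP30 or 5 µM I-CBP112 left out. Without replicate 1 of 2 µM CBP30, or without replicate 2, 75 genes were lower with CBP30, where 28.2% of all tested genes were lower and 24% higher in the former case. With the length trend removed 60 were lower, against 20.9% lower and 19.4% higher, and without single samples of the other groups 1 to 22. The compounds were not compared by test at 2 µM, where the medians against DMSO were 0.19 for CBP30 and −0.04 for I-CBP112, and the comparisons of each treatment with DMSO share the DMSO samples.

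Ribosomal proteins that are named otherwise went in the same range. FAU, a fusion of a ubiquitin-like protein with RPS30, fell from 838 and 808 FPKM to 573 and 561 FPKM with 5 µM CBP30, and GNB2L1, the symbol in the table for RACK1, fell from 2509 and 2573 FPKM to 1887 and 1875 FPKM, with changes of −0.54 ± 0.16 and −0.43 ± 0.11 (limma, adjusted p = 0.0278 and 0.0143). RPL36AL did not pass, at −0.04. With I-CBP112, 0 of these 3 genes passed at either dose.

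Other genes of the translation machinery were counted beside them. Of 17 other messenger RNAs with a known TOP motif, 11 fell and 1 rose with 5 µM CBP30, with a median of −0.40, 3 fell and 2 rose with 2 µM CBP30, and 0 passed with I-CBP112. Of all tested genes, 25.4% fell and 21.2% rose with 5 µM CBP30, and 16.3% and 15.9% with 2 µM. The counts at 2 µM CBP30 are thus near that share. With I-CBP112, 3.28% of all tested genes fell and 3.84% rose at 5 µM, and 0.735% and 0.868% at 2 µM. The same shares apply to the counts that follow. In the first 2 µM CBP30 library EEF1A1 has the value 0, beside 5338 to 6661 FPKM elsewhere. The largest fall was in EEF2, the elongation factor that moves the ribosome along, from 1552 and 1513 FPKM to 915 and 886 FPKM, and the rise was in TPT1, from 1305 and 1294 FPKM to 1861 and 1883 FPKM. Of 10 chaperones and processing partners of ribosomal proteins, 7 fell and 1 rose with 5 µM CBP30, with a median of −0.50, among them NOB1, the nuclease that finishes 18S rRNA, from 114 and 112 FPKM to 51.1 and 49.3 FPKM. Among these chaperones 4 fell and 1 rose with 2 µM CBP30, and 1 and 0 fell with 5 and 2 µM I-CBP112. Of 11 regulators, MYC, EIF4EBP1, RPTOR and YY1 fell and GABPA rose with 5 µM CBP30, 4 fell with 2 µM CBP30, and 1 fell with each dose of I-CBP112. MYC stood at 338 and 320.1 FPKM in DMSO, 148 and 146 FPKM with 2 µM CBP30, 81.7 and 80.9 FPKM with 5 µM CBP30, 241 and 231 FPKM with 2 µM I-CBP112 and 210 and 201 FPKM with 5 µM I-CBP112. MYC passed the test as lower in all 4 treatments, with changes of −1.16, −2.003, −0.48 and −0.68 in that order, beside median changes of 0.19, −0.40, −0.04 and −0.00 for the 81 genes, of which the first was −0.01 without replicate 1 of 2 µM CBP30. How the one bears on the other was not tested.

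The median changes of genes with and without a pyrimidine run at the start lay close together. The 47 matched genes with a pyrimidine run at an annotated start had a median change of −0.41 with 5 µM CBP30, from −0.75 to 0.48, with 26 lower, and the 19 without it a median of −0.39, from −0.68 to 0.30, with 11 lower and 1 higher. RPS27L, RPL26L1, RPL7L1, RPS26 and RPS4X were without the run, and so was RPL10A, which had the second largest fall. RPS27 and RPL39, which have the run, were among the genes with the smallest falls in value.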

How the data were processed

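Polyadenylated RNA of 10 K562 samples was sequenced by the authors, who ran Nextpresso on hg19 and deposited 1 FPKM value per gene and sample, without pooling replicates. The submitters' processing notes name FastQC, TopHat2 2.0.10, Bowtie 1.0.0, SAMtools 0.1.19, Cufflinks 2.2.1 and Cuffnorm, and the gene annotation is not given in the sources used here. FPKM holds no read counts, so counting error is unknown and precision rests on 2 samples per condition, whose separate origin is as labelled.

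Values were fitted as log2(FPKM + 1), a scale that understates changes of low genes, with limma 3.58.1 in R 4.3.3 (all 5 groups in 1 fit, eBayes with trend, 5 residual and 2.15 prior degrees of freedom) for the 12788 genes averaging 0.5 FPKM or more. Benjamini-Hochberg adjusted p values run over all of them. In simulated data with independent normal noise, 200 genes were lowered by 1 on the log2 scale in 5 µM CBP30. Of these, 171 of 200 were recovered in the comparison with DMSO, with 10 others called among 12788. The largest fall of a ribosomal protein gene was −0.75, so this recovery does not apply to falls of their size. Lengths came from GENCODE for GRCh37, found for 12173 of the tested genes (95.2%) and for all 81 members, where the shortest coding transcript was used. The length trend was a lowess curve (span 0.3) fitted on other genes. Their lengths were those of the transcript marked as canonical, where there was one. The curve was read for members at their shortest coding transcript, so the measures of length differ. The effect of this on the changes with the trend removed was not tested.

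Genes named are paralogs with their partners, the 5 largest called rises and falls, the 3 highest and lowest levels, role groups, and ribosomal proteins with other symbols, of which some are not reported here. The 3 highest mean levels were those of RPL41, RPLP1 and RPS27. Members and lists were chosen with earlier results of these data known. Alternatives were 2 other filters, another pseudocount, 3 other scalings, an untrended eBayes, fits of single comparisons, a replicate block, the length trend and leaving out each sample.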

Additional observations from a re-analysis of the deposited data

How the results depend on the processing

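Medians and counts refer to the 81 ribosomal protein genes on the log2(FPKM + 1) scale, with calls by limma at an adjusted p under 0.05, and where a call moved and no reason is given the cause was not tested. Counts of rises and falls against DMSO were 1 and 49 for 5 µM CBP30, 2 and 1 for 2 µM CBP30, and 0 and 0 at both doses of I-CBP112. For 5 µM CBP30 the counts were 3 higher under quantile normalization, where 24.6% of all tested genes rose. When only the groups compared were fitted, 2 were higher and 75 lower, against 28.4% and 32.6%. Without a filter 11 were lower, against 12.9% of all genes, so this count is near that share. Where no share of all tested genes stands beside a count in this section, the count is not a result about these genes. For 2 µM CBP30 they were 0 higher without a filter, 4 higher and 8 lower under quantile normalization, 0 and 0 with only the groups compared, and 13 lower with the length trend removed. For 5 µM I-CBP112, 1 gene was lower under quantile normalization (RPL12) and 1 with only the groups compared (RPL7L1). Between the doses of CBP30, 2 were higher and 40 lower under quantile normalization, 1 was higher when scaled to the sum of other genes and 1 with the length trend removed, 20 were lower without a filter and 0 with only the groups compared. Between the compounds at 5 µM, 0 were higher and 25 lower with median centring, 2 higher under quantile normalization, 6 lower without a filter, 75 lower with only the groups compared and 60 lower with the length trend removed. Without replicate 1 of 2 µM CBP30 and with the length trend removed, a combination chosen after seeing the data, 2 µM CBP30 had 1 higher and 17 lower, 5 µM I-CBP112 had 1 and 10, and 2 µM I-CBP112 had 1 lower. In the same fit 1 was higher at 5 than at 2 µM CBP30 and 71 were lower with CBP30 than with I-CBP112. The median change with 5 µM CBP30 was −0.141 under quantile normalization, −0.316 scaled to other genes and −0.297 with the length trend removed, with and without the added settings. The median with 5 µM I-CBP112 was −0.029 with the trend removed, again in all 3 fits of that kind. The median difference between doses was −0.612 with median centring, −0.153 under quantile normalization, −0.454 scaled to other genes, −0.276 with the trend removed and −0.234 in the added combination, and between compounds −0.123, −0.326 and −0.268 for quantile normalization, scaling to other genes and the trend removed. The median of large minus small subunit genes, 0.002 with 5 µM CBP30, was −0.079 under quantile normalization and −0.026 in all fits with the trend removed, that of 5 µM I-CBP112 was −0.014 under quantile normalization, and that of 2 µM I-CBP112 was 0.016 under quantile normalization and 0.000 with the trend removed.

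With the replicate number as a block, 37 genes fell with 5 µM CBP30, 1 rose with 2 µM CBP30 and 22 were lower with CBP30 than with I-CBP112, and with block and length trend removed together 15 fell with 2 µM CBP30, 1 was higher at 5 than at 2 µM CBP30 and 59 were lower with CBP30 than with I-CBP112, with medians of −0.297, −0.029, −0.276 and −0.268 and subunit differences of −0.026 and 0.000 as without the block. Deviations of samples of the same number had correlations across all tested genes from −0.0681 to 0.0939 over 10 pairs of conditions. These values cannot show whether such samples were prepared together.

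Leaving out each sample in turn gave 1 to 1 higher and 8 to 72 lower with 5 µM CBP30, 0 to 72 and 0 to 7 with 2 µM CBP30, 0 to 1 and 0 to 3 with 5 µM I-CBP112, 0 to 0 and 0 to 1 with 2 µM I-CBP112, 0 to 1 and 2 to 78 between the doses of CBP30, and 0 to 1 and 1 to 75 between the compounds. The medians ran from −0.412 to −0.398, −0.012 to 0.385, −0.011 to 0.013, −0.106 to 0.028, −0.76 to −0.38 and −0.405 to −0.392 in the same order, and the subunit differences from −0.038 to 0.002, −0.071 to −0.002, −0.022 to 0.005 and 0.006 to 0.015 for the 4 treatments against DMSO.

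For named genes, 34 values turned to the other sign where one of the fits made a call, 368 lost a call, 196 gained one and 3890 did neither. With 2 µM CBP30 against DMSO, removing the length trend, with or without the block, turned RPL10A to −0.156, RPL7 to −0.136, RPL26 to −0.113, RPL5 to −0.180, RPL11 to −0.145, RPS24 to −0.190 and RPL3 to −0.107, and RPL22 with the block to −0.164. Quantile normalization turned RPL10A to −0.138, RPL7 to −0.133, RPL22 to −0.186 and RPL3 to −0.178. Without replicate 1, RPL10A was at −0.169 and RPS24 at −0.186, against 0.248 and 0.235 without replicate 2, and with the trend removed as well RPL10A was at −0.186, RPS21 at −0.238, RPL26 at −0.111, RPL11 at −0.116, RPS24 at −0.219 and RPL3 at −0.123. Quantile normalization also turned RPL39 to 0.145 and RPS4X to 0.152 with 5 µM CBP30 against DMSO, RPS4X to 0.114 against I-CBP112, and RPS4X, RPS27, RPLP0 and RPL5 to 0.081, 0.017, 0.034 and 0.012 between the doses of CBP30. FPKM holds no read counts, so a limit from depth cannot be given, and 2 samples per condition limit the precision.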
